A study of Homo sapiens with 12 samples.

Results

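The miR-362, miR-500 and miR-532 cluster is a run of miRNA hairpins in an intron of CLCN5 on the X chromosome. Its members were taken by name: 10 mature miRNAs of the 2656 names in the count files, in their order along the chromosome hsa-miR-532-5p, hsa-miR-532-3p, hsa-miR-188-5p, hsa-miR-500a-5p, hsa-miR-500a-3p, hsa-miR-362-5p, hsa-miR-362-3p, hsa-miR-501-3p, hsa-miR-660-5p and hsa-miR-502-3p. The prefix hsa- for human is left out from here on. All 10 were listed in the cell files and 9 in all 12 files. miR-362-3p was not listed in the exosome files and was taken there as 0.

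Small RNA was sequenced from AC16, an established human cardiomyocyte line made by fusing adult ventricular cells with fibroblasts, and from exosomes isolated from it. The 4 groups, of 3 libraries each, were exosomes named Ang, exosomes named Con, whole cells named Ang and whole cells named Con. The headers of the Ang files read AngII. Neither a dose nor a time of treatment is stated. The stated aim was to find exosomal miRNAs that change in hypertrophic cardiomyocytes. All groups share this single line, and no source says whether the numbered replicates were separate cultures, so the p-values speak to variation among these libraries, which may be technical.

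Library totals ran from 697049 to 1029883 unique molecular identifiers (UMIs, tags that count each captured molecule once) in exosomes and from 413513 to 528844 in cells. Levels are given as CPM, UMIs scaled so that each library sums to 1000000. On that scale 3 counts, the limit for a name with no count, equal 2.91 to 7.25 CPM depending on the library. Floors and intervals cover counting error only. Within groups, replicate libraries differed by 1.34 to 10.6 times the sampling noise (chi-square per degree of freedom), with exosomes Con replicate 1 farthest from its group, so all 12 were counted as separate libraries. All 7 muscle miRNAs looked for (miR-1, miR-133a, miR-133b, miR-206, miR-208a, miR-208b and miR-499a) had counts. Together they reached 57.4 to 71.4 CPM in exosomes Ang, 73.8 to 90.6 in exosomes Con, 285.4 to 325.6 in cells Ang and 344.3 to 376.3 in cells Con.

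miRNAs are cut from hairpin precursors, and each hairpin can yield a mature strand from its 5′ side (5p) and another from its 3′ side (3p). One strand is usually kept in an Argonaute protein, where its seed, bases 2 to 8, pairs with target mRNAs. Neighbouring hairpins in an intron can be made from a single host transcript, while later steps act on each hairpin and strand separately. CLCN5 encodes ClC-5, a chloride/proton exchanger of endosomes best known from the kidney, where its loss causes Dent disease. Of the members, miR-362-5p is known in liver cancer for lowering the deubiquitinase CYLD. miR-532-3p has been described in cardiomyocytes as lowering the apoptosis repressor ARC, miR-532-5p in melanoma as lowering RUNX3, and miR-660-5p in lung cancer as lowering MDM2.

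Mature sequences were found in RefSeq (GRCh38.p14) for 9 of the 10 members, all on the plus strand of chromosome X. They are shown for the members whose values carry the results and for their closest relatives, in lower case with the seed in capitals.
miR-362-5p: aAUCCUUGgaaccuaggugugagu
miR-501-5p: aAUCCUUUgucccugggugaga
miR-500a-5p: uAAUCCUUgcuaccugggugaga
miR-501-3p: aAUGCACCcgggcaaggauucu
miR-502-3p: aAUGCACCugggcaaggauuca
miR-500a-3p: aUGCACCUgggcaaggauucug
miR-532-5p: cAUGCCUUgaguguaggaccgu
miR-532-3p: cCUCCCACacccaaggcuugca
miR-501-3p and miR-502-3p share the seed AUGCACC, which no other name in the files with a RefSeq sequence has. They differ at 2 of 22 bases, C9U and U22A, counted from 1 at the 5′ end with the miR-501-3p base first. miR-500a-3p starts 1 base later, so its seed is UGCACCU, and over the 21 shared bases it differs from miR-501-3p only by C9U. miR-362-5p shares its seed AUCCUUG with miR-500b-5p, and with no other of these names. Counts of such near-identical strands are uncertain for single names, because neither the aligner nor the mismatches it allowed is stated.

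The mature strands sit at chrX:50008968-50008991 for miR-362-5p, chrX:50009772-50009793 for miR-501-3p, chrX:50003167-50003188 for miR-532-5p and chrX:50003204-50003225 for miR-532-3p (GRCh38). The 8 hairpins of the cluster, MIR500B included, span 11536 bp. In GENCODE release 29 they all lie in a single intron of the 3 protein-coding CLCN5 transcripts that span them (intron chrX:49925315-50042315, gene chrX:49922615-50099235, plus strand), and no CLCN5 exon overlaps a hairpin. The spacing is uneven: MIR532 and MIR188 lie together at one end, MIR500A, MIR362, MIR501 and MIR500B 5283 to 7602 bp from the start of MIR532, and MIR660 and MIR502 beyond them.

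**Figure D1:**
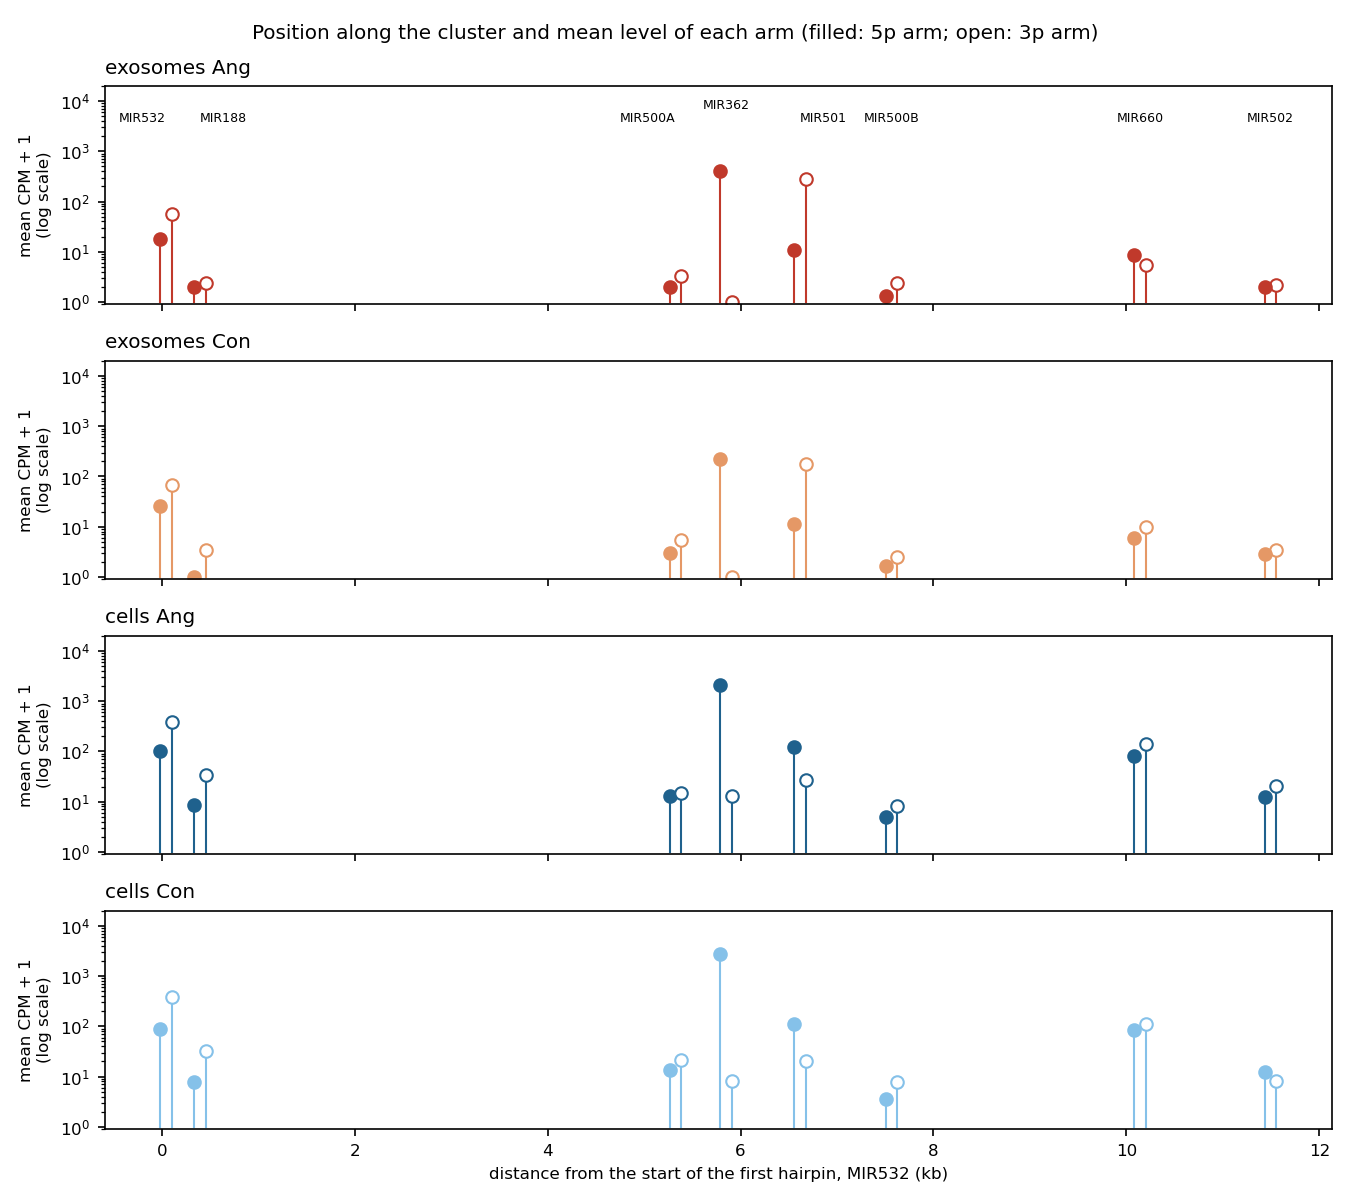
Mean level of each arm (CPM + 1, log scale, n = 3) against the distance of its hairpin from the start of MIR532 in kb, by group, with the arms moved slightly sideways for clarity. miR-362-5p stands highest in every panel, and miR-501-3p stands beside it in exosomes but not in cells, while miR-362-3p, not listed in the exosome files, is drawn there at 0.

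The cluster's level was carried by few strands. miR-362-5p led in every group, while the second strand was not the same in exosomes and in cells. The 10 members together reached 777.1 ± 36.4 CPM in exosomes Ang, 500.3 ± 59.1 in exosomes Con, 2749 ± 57.8 in cells Ang and 3429 ± 275 in cells Con (SD, n = 3). miR-362-5p made up 52.3% ± 3.5 of that sum in exosomes Ang, 43.6% ± 3.3 in exosomes Con, 76.4% ± 0.115 in cells Ang and 81.7% ± 0.404 in cells Con. miR-501-3p made up 36.9% ± 2.7 in exosomes Ang and 35.6% ± 3.29 in exosomes Con, but 0.927% ± 0.259 in cells Ang and 0.57% ± 0.216 in cells Con. miR-532-3p was the second member in cells, with 13.8% ± 0.2 in Ang and 11.1% ± 0.551 in Con. The remaining 7 members held the rest. Strands of neighbouring hairpins thus stood at very unequal levels in every group.

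In exosomes Con the order of levels was miR-362-5p, miR-501-3p, miR-532-3p, miR-532-5p and then 6 members averaging no more than 5.04 CPM. The first 2 of these overlapped between libraries (189.3 to 250.2 and 162.2 to 200.3 CPM), as did neighbours in the order among the 6 lowest. Within each exosomes Con library miR-362-5p was still above miR-501-3p, with count ratios of 1.17, 1.07 and 1.47. In cells Con the order was miR-362-5p, miR-532-3p, miR-532-5p and miR-660-5p, followed by 6 members between 6.71 and 20.4 CPM. There miR-532-5p at 86.6 ± 10.8 CPM and miR-660-5p at 85.5 ± 13.8 CPM differed by less than their spread. Mature strands are counted whole, so CPM needs no scaling by length. Library preparation can capture some sequences better than others, which levels between members do not correct for.

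**Figure D2:**
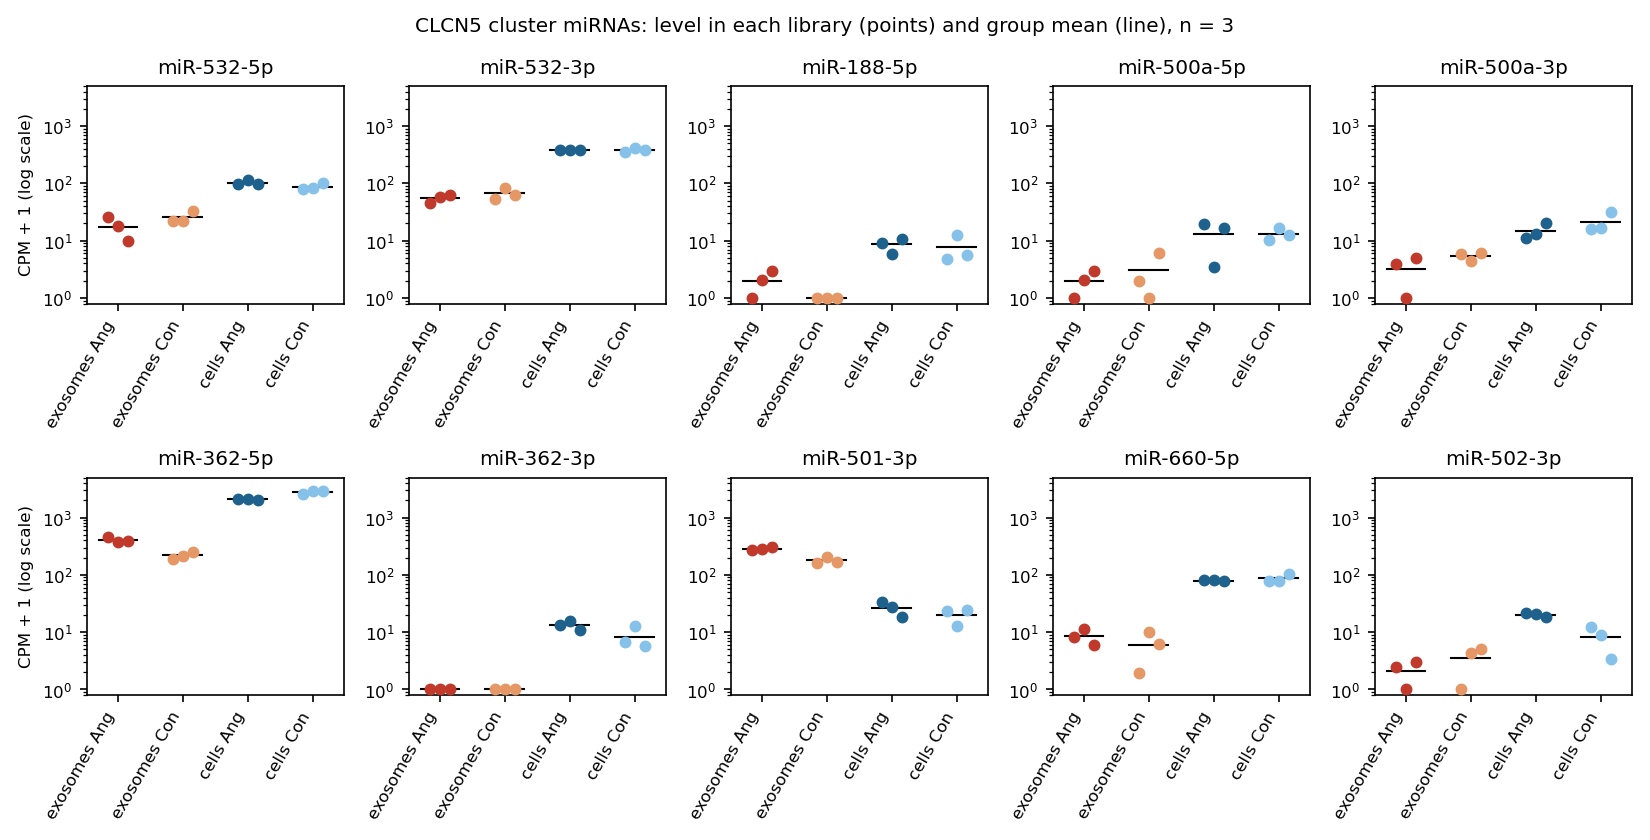
Level of each of the 10 members (CPM + 1, log scale) in each library, with a line at the group mean (n = 3). miR-501-3p is the only panel in which the exosome libraries stand above the cell libraries, and miR-362-5p stands higher in Ang than in Con in exosomes and lower in cells. miR-362-3p, not listed in the exosome files, is drawn there at 0.

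In exosomes, miR-362-5p and miR-501-3p were higher in Ang than in Con, while the strands of miR-532 were not called. Counts were fitted with edgeR's quasi-likelihood test on TMM-scaled libraries (a scaling that sets aside the most extreme names), and a name was called at a Benjamini-Hochberg adjusted p under 0.05 over all 1199 names tested. Of the 10 members, 4 passed the filter on low counts. Those called were 2 higher and none lower, where 16.9% of all tested names were higher, 17.1% lower and 34% called in either direction.

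miR-362-5p stood at 456.2, 371.8 and 392.2 CPM in exosomes Ang, against 189.3, 215 and 250.2 CPM in exosomes Con. Every Ang library was above every Con library. The rise was 2.09-fold (log2 1.07, SE 0.119, adjusted p = 8.9e-05 by edgeR, n = 3 per group). In bulk RNA, a changed number of vesicles or cells holding a strand and a changed amount in each cannot be told apart.

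miR-501-3p stood at 274, 279.9 and 304.1 CPM in exosomes Ang, against 162.2, 200.3 and 169.9 CPM in exosomes Con. Its groups did not overlap either. It rose 1.81-fold (log2 0.86, SE 0.11, adjusted p = 0.000218 by edgeR). The sum of miR-500a-3p, miR-501-3p and miR-502-3p does not depend on how reads were split among these names. That sum rose 1.76-fold (log2 0.82, SE 0.109, adjusted p = 0.000274 by edgeR). miR-501-3p gave most of it, with 770 counts in exosomes Ang and 510 in exosomes Con. miR-500b-3p, which differs from miR-501-3p at 1 of 19 aligned bases, was left out of the sum.

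The strands of miR-532 did not pass. miR-532-3p stood at 44.5, 57.4 and 62.6 CPM in exosomes Ang, against 52.4, 82.2 and 62.8 CPM in exosomes Con (log2 -0.08, SE 0.195, adjusted p = 0.822 by edgeR). miR-532-5p stood at 24.4, 16.7 and 8.8 CPM in exosomes Ang, against 21.4, 21.4 and 31.9 CPM in exosomes Con (log2 -0.49, SE 0.329, adjusted p = 0.291 by edgeR). The groups overlapped for both strands, and without Con replicate 2 or Ang replicate 1 the sign for miR-532-3p turned.

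The ratio of counts between members needs no scaling of the libraries. There were 10.3, 6.47 and 6.27 counts of miR-362-5p for each count of miR-532-3p in exosomes Ang, against 3.61, 2.62 and 3.98 in exosomes Con. Its ratio to miR-501-3p was 1.66, 1.33 and 1.29 in exosomes Ang, against 1.17, 1.07 and 1.47 in exosomes Con. The first ratio was higher in every Ang library, whereas the second overlapped between the groups.

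The other 6 members were too low in exosomes to be tested. miR-660-5p had 5, 10 and 5 counts in exosomes Ang, against 1, 8 and 5 in exosomes Con. miR-188-5p, miR-500a-5p, miR-500a-3p and miR-502-3p had between 0 and 5 counts in each exosome library. The 6 other strands of the cluster (miR-188-3p, miR-501-5p, miR-502-5p, miR-660-3p and both strands of miR-500b) were not tested in this comparison. miR-501-5p, the partner of miR-501-3p, stood at 10, 9.4 and 9.78 CPM in exosomes Ang, against 10.7, 11.3 and 8.24 CPM in exosomes Con, and these ranges overlapped. Over the 4 tested members the median log2 difference was 0.39, over all names tested -0.05, and over the 5 strands tested of the miR-424 cluster, another X-linked run of hairpins, -0.14 with 1 called lower.

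Library scaling and marker miRNAs also differed between these groups. With library totals in place of TMM the median of all names moved by -0.16 (log2) and 39.2% of names were called, 12.6% higher and 26.6% lower. On that scale miR-362-5p rose 1.86-fold and miR-501-3p 1.61-fold. All 7 blood cell miRNAs looked for had counts, with a summed level of 345.7 to 643.3 CPM in exosomes Ang and 551.5 to 1279 CPM in exosomes Con. Both endothelial strands of miR-126 had 84.6 to 232.9 CPM in exosomes Ang and 130.1 to 472.6 in exosomes Con, and the liver miRNA miR-122-5p had 4.3 to 18.8 CPM in exosomes Ang and 8.74 to 156.5 in exosomes Con. None of these markers was at 0 throughout a group, and their part in the result was not tested. The Con library with the lowest marker sums was replicate 1, and without it both members were still called, miR-501-3p with log2 0.83.

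In cells, miR-362-5p was lower in Ang than in Con, the opposite direction to exosomes. Of the 10 members, 5 were tested and 1 was called, where 6.56% of the 1630 names tested were called, 2.76% higher and 3.8% lower. The share called among all names depended on single libraries: 107 names were called with all libraries and 38 without Con replicate 2.

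miR-362-5p stood at 2132, 2123 and 2047 CPM in cells Ang, against 2528, 2946 and 2934 CPM in cells Con. Every Ang library was below every Con library. It fell 1.35-fold (log2 -0.43, SE 0.0714, adjusted p = 0.00189 by edgeR, n = 3 per group). Cells Ang replicate 2 held 6895 CPM of blood cell miRNAs, against 2041 and 2172 in the other Ang libraries and 2134 to 2374 in cells Con, and without that library the log2 difference was -0.44.

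No other tested member passed in cells. miR-532-3p averaged 378.6 ± 3.89 CPM in cells Ang and 381.1 ± 27.2 in cells Con (log2 -0.02, SE 0.103, adjusted p = 0.947 by edgeR), and its sign turned without Con replicate 2. miR-532-5p had log2 0.21 (SE 0.164, adjusted p = 0.563 by edgeR), miR-660-5p -0.13 (SE 0.172, adjusted p = 0.801) and miR-501-3p 0.39 (SE 0.374, adjusted p = 0.633). miR-501-3p rested on 9 to 16 counts per library in cells Ang and 6 to 12 in cells Con, and the log2 difference seen in exosomes, 0.86, lies within 2 SE of the value in cells. Of the 6 other strands, miR-188-3p, miR-501-5p and miR-660-3p were tested and none passed, with log2 0.04, 0.12 and 0.28. The median log2 difference was -0.02 over the 5 tested members and 0.02 over all names tested.

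The count ratio of miR-362-5p to miR-532-3p was 5.62, 5.56 and 5.47 in cells Ang, against 7.07, 7.17 and 7.82 in cells Con. It was thus lower in every Ang library of the cells and higher in every Ang library of the exosomes.

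Below the filter, miR-502-3p had 10, 8 and 9 counts in cells Ang, against 6, 4 and 1 in cells Con, and miR-362-3p had 6, 6 and 5 counts in cells Ang, against 3, 6 and 2 in cells Con. miR-188-5p had 2 to 5 counts in cells Ang and 2 to 6 in cells Con. Such counts give no usable fold change.

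The Ang change was then compared between compartments in a fit to all 12 libraries, in which 15.1% of 1835 names were called, 9.97% higher and 5.18% lower. Of the 6 members tested, only miR-362-5p was called. Its change in exosomes exceeded that in cells by 1.63 on the log2 scale (SE 0.15, adjusted p = 1.25e-06 by edgeR), with a rise in exosomes and a fall in cells. For miR-501-3p the difference of changes was 0.60 (SE 0.354, adjusted p = 0.321), for miR-660-5p 1.04 (SE 0.56, adjusted p = 0.272), for miR-532-3p 0.09 (SE 0.218, adjusted p = 0.874), for miR-532-5p -0.56 (SE 0.361, adjusted p = 0.376) and for miR-502-3p -2.06 (SE 1.18, adjusted p = 0.306). With library totals the value for miR-362-5p was 1.31 and the median of all names moved by -0.32. On that scale 17.2% of names were called, 5.07% higher and 12.1% lower. In RLE size factors, another scaling, the median moved by 0.11 and calls went to 250 higher and 77 lower, against 183 higher and 95 lower with TMM.

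**Figure D3:**
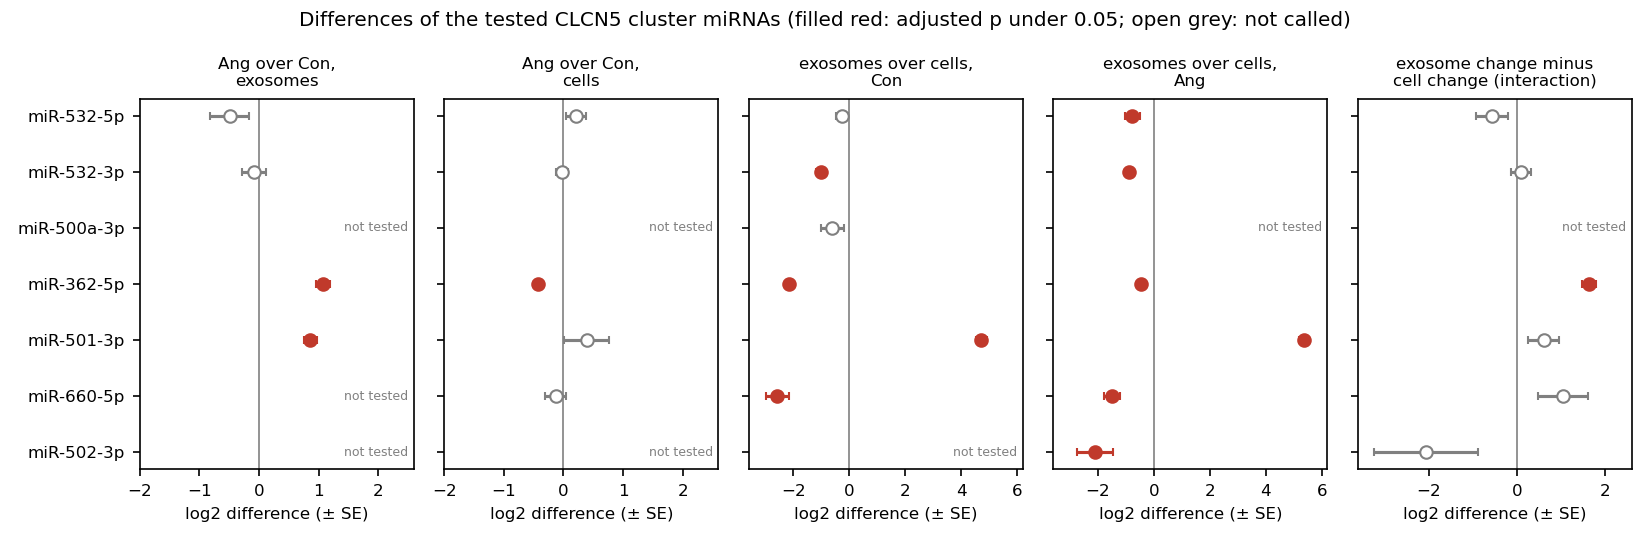
log2 difference (± SE) of each tested member in the 4 comparisons and in the interaction, with called values filled and members under the count filter marked as not tested. miR-362-5p lies above 0 for Ang over Con in exosomes (1.07) and below 0 in cells (-0.43), and miR-501-3p alone lies above 0 for exosomes over cells (5.36 in Ang and 4.71 in Con).

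Exosomes were compared with cells to ask which strands of the cluster were relatively abundant outside the cell. Exosomes and cells were extracted with different kits, so compartment and kit cannot be told apart. miR-501-3p was higher in exosomes, while the other members called were lower. In Ang 6 members were tested, 1 was higher and 5 were lower, where 83.3% of 1627 names were called (38.2% higher and 45.1% lower). In Con 6 were tested, 1 was higher and 3 were lower, where 83.3% of 1710 names were called (39.2% higher and 44.2% lower). Most names thus differed between compartments. The counts in Con are near that background, while in Ang the share of members called lower was above the 45.1% of all names. With 6 members tested, such shares are coarse. miR-660-5p, miR-502-3p and miR-500a-3p passed the filter only through the cells, where they were high, so their lower level in exosomes is a description. The same held for miR-532-5p in Ang. In Con miR-501-3p passed only through the exosomes, where it was high, so its higher level there is a description too.

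These differences depend strongly on the scaling. With library totals in place of TMM the median of all names moved by -1.89 in Ang and by -1.52 in Con (log2). In Ang 90.4% of names were then called, 18.1% higher and 72.3% lower, and in Con 87.8%, 20.2% higher and 67.6% lower. The direction of every member called was the same on both scales, and both values are given below.

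miR-501-3p averaged 286 ± 16 CPM in exosomes Ang and 25.6 ± 7.59 CPM in cells Ang (SD, n = 3), a log2 difference of 5.36 with TMM (41.1-fold, SE 0.187, adjusted p = 3.87e-14 by edgeR) and 3.47 with library totals (11.1-fold). It averaged 177.5 ± 20.2 CPM in exosomes Con and 19.3 ± 6.66 CPM in cells Con, a log2 difference of 4.71 (26.1-fold, SE 0.203, adjusted p = 3.3e-09) and 3.19 with library totals (9.15-fold). All 6 exosome libraries were above all 6 cell libraries. In Con miR-501-3p passed the filter only through the exosomes, so its difference there is a description. Summed with its near-identical relatives it was, with TMM, 18.2-fold higher in exosomes in Ang and 11.2-fold higher in Con. These are below the TMM values of 41.1-fold and 26.1-fold for miR-501-3p alone. The sum was not fitted with library totals.

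miR-362-5p was lower in exosomes in both, by more in Con than in Ang. It averaged 406.7 ± 44.1 CPM in exosomes Ang and 2101 ± 46.7 CPM in cells Ang, which was 1.4-fold lower in exosomes with TMM (log2 -0.48, SE 0.0965, adjusted p = 0.000214 by edgeR) and 5.22-fold lower with library totals. It averaged 218.2 ± 30.5 CPM in exosomes Con and 2802 ± 238 CPM in cells Con, which was 4.5-fold lower with TMM (log2 -2.17, SE 0.112, adjusted p = 1.55e-08) and 12.9-fold lower with library totals. These comparisons use the same libraries as the interaction above.

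miR-532-3p averaged 54.8 ± 9.33 CPM in exosomes Ang and 378.6 ± 3.89 CPM in cells Ang (log2 -0.88, SE 0.151, adjusted p = 4.58e-05 by edgeR). It averaged 65.8 ± 15.1 CPM in exosomes Con and 381.1 ± 27.2 CPM in cells Con (log2 -1.03, SE 0.154, adjusted p = 0.0001). With library totals these log2 differences were -2.78 in Ang and -2.55 in Con. Its partner miR-532-5p was lower in exosomes in Ang (log2 -0.78, SE 0.268, adjusted p = 0.0132, and -2.67 with library totals), a call that ended without exosomes Ang replicate 3 (log2 -0.39, adjusted p = 0.175). In Ang miR-532-5p passed the filter only through the cells, so its lower level in exosomes there is a description. The same strand was not called in Con (log2 -0.27, SE 0.212, adjusted p = 0.254), although it was with library totals (log2 -1.79) and without exosomes Con replicate 3 (log2 -0.57).

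miR-660-5p, miR-502-3p and miR-500a-3p passed the filter only through the cells. Their lower levels in exosomes are a description, and the adjusted p-values given here are not support for them. miR-660-5p was 2.81-fold lower in exosomes in Ang (log2 -1.49, SE 0.287, adjusted p = 0.000146 by edgeR), where it had 20 counts over 3 exosome libraries and 111 over 3 cell libraries. In Con it was 6-fold lower (log2 -2.58, SE 0.403, adjusted p = 0.000133), with 14 counts in exosomes and 124 in cells. Of those 14 counts 8 were in exosomes Con replicate 2, and without that library the log2 difference was -3.30. With library totals the log2 difference was -3.37 in Ang and -4.09 in Con. miR-502-3p was called in Ang alone (log2 -2.11, SE 0.629, adjusted p = 0.00531), on 3 counts in exosomes and 27 in cells. It had log2 -3.90 with library totals, was not called with DESeq2 (log2 -2.22) and fell under the count filter whenever an Ang exosome library was left out. In Con, where it was not tested, it had 7 counts in exosomes and 11 in cells. miR-500a-3p was not called in Con (log2 -0.61, SE 0.416, adjusted p = 0.21), with 13 counts in exosomes and 29 in cells, though it was with library totals (log2 -2.10).

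Of the 6 other strands, miR-188-3p, miR-501-5p and miR-660-3p passed the filter, again only through the cells, so their values are a description. For exosomes over cells they had log2 -2.51, -1.76 and -2.92 in Ang and -2.16, -1.94 and -2.11 in Con. miR-188-3p, miR-501-5p and miR-660-3p all had at most 12 counts in an exosome library.

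Both arms of a hairpin come from the same precursor, so the share of each in their summed counts was compared. For miR-362 the 5p arm held 99.4% ± 0.102 of counts in cells Ang and 99.7% ± 0.12 in cells Con (SD, n = 3), and in exosomes, where the 3p arm was not listed, 5p counts alone were seen. The difference in cells, -0.315 percentage points, had an exact two-sided permutation p of 0.1, the smallest that 3 against 3 libraries allow, so no arm comparison here could fall below that value. It rested on 17 counts of miR-362-3p in cells Ang and 11 in cells Con.

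For miR-532 the 3p arm led everywhere. The 5p arm held 35.4%, 22.5% and 12.3% in exosomes Ang, 29%, 20.7% and 33.7% in exosomes Con, 20.2%, 22.5% and 20.3% in cells Ang, and 18.2%, 16.5% and 20.9% in cells Con. These shares overlapped between exosomes and cells and between Ang and Con. The mean difference was -4.34 points for Ang over Con in exosomes and 2.48 points in cells (exact permutation p = 0.7 and 0.3), and 2.41 points for exosomes over cells in Ang and 9.23 points in Con (p = 0.8 and 0.2). The 2 strands of miR-532 thus showed no arm shift detectable in these libraries, with 95% exact binomial intervals as wide as 22.2% to 50.5% for a single exosome library.

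For miR-500a the shares rested on 1 to 18 counts per library and ranged from 0% to 100% in exosomes Ang. Pooled, the 5p arm held 33.3% in exosomes Ang (95% interval 7.49% to 70.1%), 31.6% in exosomes Con (12.6% to 56.6%), 47.4% in cells Ang (31% to 64.2%) and 38.3% in cells Con (24.5% to 53.6%). No difference was detectable at this depth, with exact permutation p between 0.5 and 1 in the 4 comparisons.

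miR-501 was unlike these hairpins, in that its leading arm was not the same in exosomes and in cells. This pair was singled out after its values were seen, so the shares are given with no test. The 5p arm held 3.54%, 3.25% and 3.12% of counts in exosomes Ang, 6.18%, 5.32% and 4.62% in exosomes Con, 80.9%, 82% and 85.9% in cells Ang, and 84.2%, 89.3% and 83.1% in cells Con. The exosome libraries and the cell libraries lay far apart, with 95% exact binomial intervals reaching no higher than 10.8% in any exosome library and no lower than 70% in any cell library. In counts, miR-501-5p and miR-501-3p had 26 and 770 in exosomes Ang, 29 and 510 in exosomes Con, 173 and 36 in cells Ang, and 163 and 28 in cells Con. A share within a library needs no scaling, so this contrast does not rest on TMM, though it does rest on reads having been given to the right name.

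For miR-660 the 5p arm held 38.2%, 36.3% and 34.5% in cells Ang and 41.4%, 39.2% and 48.9% in cells Con. In exosomes, on 5 to 17 counts per library, it held 100%, 66.7% and 38.5% in Ang and 12.5%, 53.3% and 29.4% in Con, values too scattered to order.

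**Figure D4:**
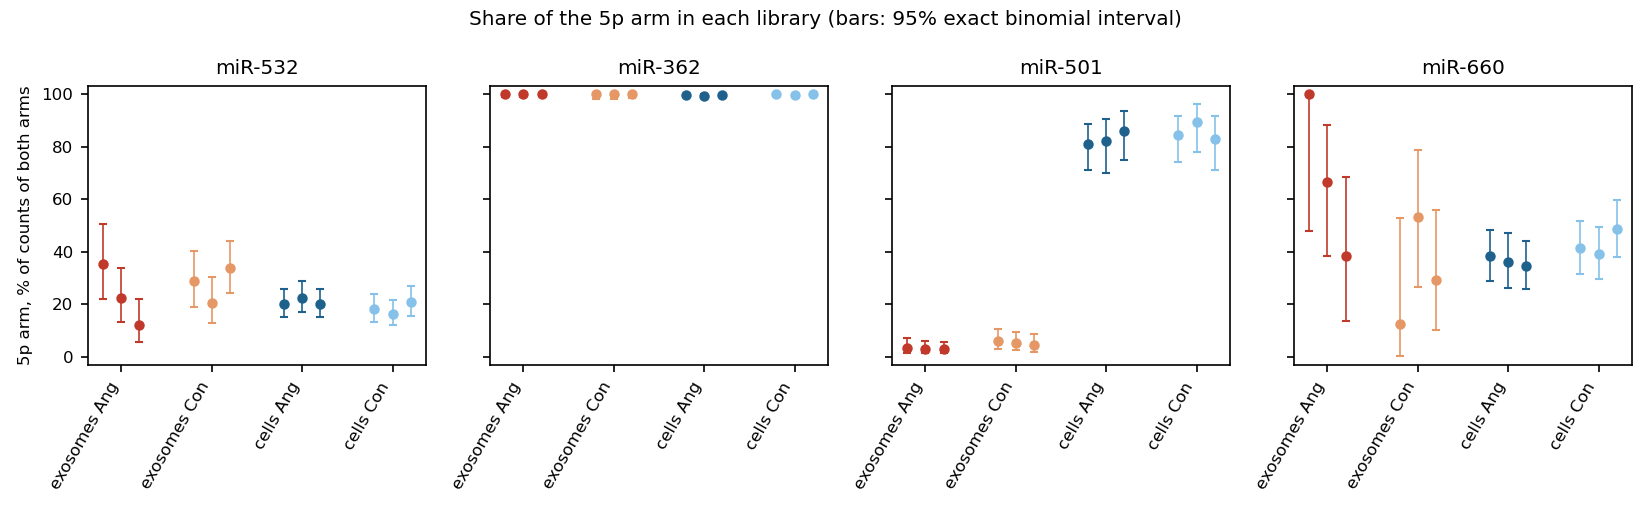
Share of the 5p arm in the counts of both arms (percent) in each library for the 4 hairpins with the most counts, with 95% exact binomial intervals. miR-501 stands at 3.12% to 6.18% in exosomes and at 80.9% to 89.3% in cells, while miR-532 overlaps between the groups. miR-362-3p was taken as 0 in exosomes.

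The short motifs GGAG, CCCU and GGCU, described elsewhere in miRNAs found in exosomes, were looked for in the mature sequences as written. GGAG and CCCU occurred in 1 of the 9 members with a sequence, miR-188-5p, and in 15.7% and 11.9% of the 2367 names in the files with a RefSeq sequence. GGCU occurred in 1 member, miR-532-3p, and in 12.6% of those names. None of these motifs is in miR-501-3p or miR-362-5p. Of the 6 other strands of the cluster, miR-501-5p held CCCU and the rest held none of these motifs. The G and C content was 54.5% in miR-501-3p, the same as in miR-532-5p and miR-500a-3p, 45.8% in miR-362-5p, and 36.4% to 63.6% over the 9 members.

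The names whose pattern over the 12 libraries was most like that of the summed members were ranked by the root mean square difference of centred log2 CPM (TMM, prior count 2) among 1814 other names of at least 10 CPM on average. miR-4316 was closest at 0.123, followed by miR-130b-5p at 0.186, miR-6884-3p at 0.197, miR-7158-5p at 0.207 and miR-6880-5p at 0.209, where the median name was at 0.919. miR-4316 averaged 73.5 ± 6 CPM in exosomes Ang, 43.9 ± 8.33 in exosomes Con, 258.9 ± 10.2 in cells Ang and 292.3 ± 12.4 in cells Con. Among the members miR-362-5p, the most abundant, was closest to the sum at 0.38, though 64 of the 1814 other names were closer still. miR-532-3p was at 0.408, with 81 other names closer. miR-501-3p, at 2.71, was farther than 1769 of the 1814 other names.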

How the data were processed

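The deposited values are raw UMI counts per mature miRNA name for each of 12 libraries, per the file headers, as whole numbers with no normalization. The labels' protocols name the miRNeasy Micro kit for cells, the exoRNeasy Maxi kit for exosomes and a QIAseq miRNA kit for all libraries. The submitters' processing notes name cutadapt and GRCh38. Aligner, miRNA annotation and counting program: not given in the sources used here. The 76 names not listed in the exosome files, none above 20 counts in a cell library, were taken as 0 there.

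Each comparison was fitted over all names with edgeR 4.0.16 in R 4.3.3 (filterByExpr, TMM, quasi-likelihood test, two-sided, Benjamini-Hochberg over all tested names). SEs were derived from the test statistic. Only the members' rows, the other strands of the cluster and the compared lists are printed. Arm shares were compared with exact permutation tests in Python 3.11.15. Alternatives were RLE, library totals, DESeq2 1.42.0, limma-voom (limma 3.58.1), other filters, a replicate block, each library left out, all 12 libraries, and near-identical members summed. The edgeR script was tested on simulated data. The members and lists were chosen with earlier results of these data known. All 10 members are named, and the 5 names most like their sum were taken by the stated distance. Correlations of the deviations of same-numbered libraries ran from -0.06 to 0.13, and the numbers were not taken as pairs. Such correlations include names with few counts, where counting noise weighs heavily, so they cannot show that pairing was absent.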

Additional observations from a re-analysis of the deposited data

Results flagged for a closer look

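The change of miR-362-5p under Ang differed between compartments, which is what drew attention to it. It rose in exosomes (406.7 ± 44.1 CPM in exosomes Ang and 218.2 ± 30.5 CPM in exosomes Con, SD, n = 3) and fell in cells (2101 ± 46.7 CPM in cells Ang and 2802 ± 238 CPM in cells Con). The difference of the changes was 1.63 on the log2 scale (adjusted p = 1.25e-06 by edgeR, all 12 libraries). Over its 20 alternatives it ran from 1.31 to 1.74 with an adjusted p of at most 2.28e-05. The extraction kits differ between exosomes and cells in Ang and Con alike, and their part in the difference was not tested.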

How the results depend on the processing

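The number of members called stayed within 1.5 times its value under every alternative run. miR-362-5p and miR-501-3p kept their calls for Ang over Con in exosomes (log2 0.89 to 1.18 and 0.69 to 0.95), and miR-362-5p kept its call in cells (log2 -0.49 to -0.40, adjusted p at most 0.0339). A replicate block, which the labels' numbers allow although pairing was not shown, gave log2 1.06, 0.86 and -0.43 for these and left 2 members called in exosomes and 1 in cells. It changed no other member's call. The uncalled sign of miR-532-3p turned: for Ang over Con in exosomes it was 0.01 in a fit to all 12 libraries and -0.18 to 0.11 with a library left out (0.11 without Con replicate 2, 0.04 without Ang replicate 1). In cells it was -0.07 to 0.03 with a library left out, and 0.03 without Con replicate 2. The interaction was -0.23 with library totals and -0.08 to 0.24 with a library left out (-0.08 without exosomes Con replicate 1, -0.04 without exosomes Ang replicate 3). The miR-500a arm difference for exosomes over cells in Ang was -14 points with summed counts and -25.1 to 24.9 with a library left out. For Ang over Con it then ran from -5.56 to 44.4 points in exosomes and from -8.19 to 15.6 in cells. That of miR-532 ran from -10.3 to 1.21 points for Ang over Con in exosomes and from -3.59 to 7.96 for exosomes over cells in Ang. With DESeq2, miR-502-3p lost its call in Ang (adjusted p = 0.0509). The cause of these turns was not tested. Some low members fell under the filter in some fits and gave no value there.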
